A study of Mus musculus with 28 samples.

Results

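SUPT16 is the larger subunit of FACT, and SUPT16-only peaks are the regions of the SUPT16 ChIP-seq list that share no base with any SSRP1 peak. Of 3855 SUPT16 peaks, 2045 met this rule and 1810 shared at least 1 base with a SSRP1 peak. The SSRP1 list holds 10114 peaks, of which 8476 had no SUPT16 peak. ChIP-seq was done in mouse ES cells of the E14 line (mESCs), and the labels give each subunit and the input as replicates 1 and 2, from which 1 peak list per subunit was made. RNA-seq compared 4 control libraries (scramble shRNA vector) with 4 *Ssrp1* knock-down (KD) libraries (a combination of shRNA vectors against *Ssrp1*), and both groups were selected with puromycin (2 μg/ml) for 24 h, starting 48 h after transfection. Chromatin-associated RNA was counted in 2 further libraries.

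FACT is a histone chaperone built from SSRP1 and SUPT16. It loosens contacts of H2A-H2B dimers within the nucleosome while RNA polymerase II passes and helps to restore them afterwards. The subunits are held in 1 complex, and the question was where SUPT16 was listed without its partner and how the genes there were expressed. The peak lists give positions and nearest genes but no heights, so a region without a SSRP1 peak is one where none was listed, and the amount of SSRP1 there was not measured. The depth of the ChIP libraries is unknown.

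The sequences of 5 SUPT16-only peaks at gene starts are shown as examples (GRCm38, plus strand, 5′ to 3′). Only windows without a base in a noncoding exon were eligible, and 35.8% of SUPT16-only peaks near starts have their centre in such an exon. The 5 genes with the largest falls were left out by this condition. The windows of *Cltc* and *Hist3h2ba* were eligible, hold no motif match, and are not shown. *Galk1* and *Qtrt1* stand for genes that rose upon KD, and *Ddb1*, *Nedd4*, and *Rack1* for the most expressed genes. The nearest SSRP1 peak was 140 bp from the *Rack1* peak, 1554 bp from *Nedd4*, 6510 bp from *Galk1*, 79548 bp from *Ddb1*, and 133350 bp from *Qtrt1*. The *Rack1* peak is whole, and the central 210 bases of the longer peaks are given, a choice made after the values were seen. Capitals mark matches on either strand to GGGCGG (GC box), TGCGCA (core of the NRF1 motif), ATGGCGG (part of the YY1 motif), or TATAAA (the motif of TBP), and ATGGCGG and GGGCGG overlap in *Nedd4*. The windows lie at chr11:116012821-116013030 (*Galk1*), chr9:21412021-21412230 (*Qtrt1*), chr19:10605736-10605945 (*Ddb1*), chr9:72661856-72662065 (*Nedd4*), and chr11:48799731-48799940 (*Rack1*).
Galk1: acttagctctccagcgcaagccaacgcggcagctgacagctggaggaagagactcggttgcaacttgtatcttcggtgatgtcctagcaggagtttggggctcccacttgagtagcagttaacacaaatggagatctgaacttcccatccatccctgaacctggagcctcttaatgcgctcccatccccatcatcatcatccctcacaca
Qtrt1: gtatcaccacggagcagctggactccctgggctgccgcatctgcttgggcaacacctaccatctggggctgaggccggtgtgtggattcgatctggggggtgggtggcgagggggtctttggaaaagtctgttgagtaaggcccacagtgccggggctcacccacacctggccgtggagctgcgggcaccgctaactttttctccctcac
Ddb1: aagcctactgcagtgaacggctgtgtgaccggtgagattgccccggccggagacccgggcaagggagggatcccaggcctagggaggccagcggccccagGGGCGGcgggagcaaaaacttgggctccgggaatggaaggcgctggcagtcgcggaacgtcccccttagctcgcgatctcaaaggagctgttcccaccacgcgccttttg
Nedd4: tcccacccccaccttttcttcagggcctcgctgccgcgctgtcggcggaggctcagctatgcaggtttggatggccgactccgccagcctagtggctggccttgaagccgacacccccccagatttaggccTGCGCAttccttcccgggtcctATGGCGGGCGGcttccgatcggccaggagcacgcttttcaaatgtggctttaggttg
Rack1: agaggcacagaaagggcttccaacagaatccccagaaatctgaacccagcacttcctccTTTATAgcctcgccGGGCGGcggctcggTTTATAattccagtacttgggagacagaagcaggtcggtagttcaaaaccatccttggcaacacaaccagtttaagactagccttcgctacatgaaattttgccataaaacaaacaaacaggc

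The motifs were searched on both strands in windows of 210 bp at the peak centre. GGGCGG was found in 679 of 2045 SUPT16-only windows (33.2%, 95% Wilson interval 31.2 to 35.3%), in 38.7% of shared windows, and in 38.4% of windows at the starts of 21774 protein-coding genes. Among peaks within 1000 bp of a gene start the shares were 48.5% of SUPT16-only and 47.4% of shared windows. CCAAT (NF-Y) was present in 16.97% of SUPT16-only and 13.98% of shared windows, against 29.5% at gene starts. CCGGAAG (ETS) was present in 4.40%, 6.24%, and 9.39% of these sets. TGCGCA was present in 4.84%, 4.92%, and 7.48%, ATGGCGG in 4.16%, 6.19%, and 4.98%, CACGTG (E-box) in 3.77%, 5.69%, and 5.84%, and TATAAA in 4.11%, 4.09%, and 8.90%. These are matches of letters and not sites of binding.

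SUPT16-only peaks were short. Their median length was 210 bp (quartiles 210 to 420 bp, longest 8960 bp) and they covered 679 kb, whereas shared SUPT16 peaks had a median of 490 bp and covered 1164 kb. Peak lengths are multiples of 70 bp in the SUPT16 list and of 98 bp in the SSRP1 list, and 210 bp is the shortest length of the former. Of the 1579 peaks of 210 bp, 1143 had no SSRP1 peak (72.4%, interval 70.1 to 74.5%). Of the 292 peaks of 1050 bp or more, 24 had none (8.22%, interval 5.59 to 11.9%). The intervals cover counting error only, here and below.

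**Figure D1:**
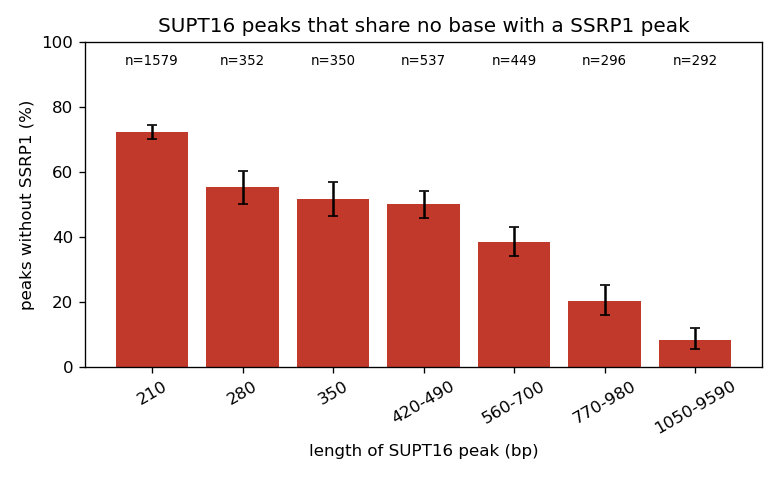
Share of SUPT16 peaks without a SSRP1 peak (y axis, %) by length of the peak (x axis, bp). Bars are shares with 95% Wilson intervals and n is the number of SUPT16 peaks, and the share goes from 72.4% at 210 bp to 8.22% at 1050 bp and above.

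Most SUPT16-only peaks were far from any SSRP1 peak. The median gap was 24556 bp (quartiles 3682 to 88508 bp). At the edge of the rule, 11 peaks touched a SSRP1 peak without sharing a base, and 98 lay within 200 bp (4.79%). A gap of at most 1000 bp was found for 316 peaks (15.5%). Just inside the shared set, the smallest overlap was 14 bp, and 28 peaks overlapped by at most 50 bp.

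SUPT16-only peaks were often found at gene starts, but less often than shared peaks. Of the 2045, 1045 lay within 1000 bp of a RefSeq gene start (51.1%, interval 48.9 to 53.3%), against 64.0% of shared SUPT16 peaks and 33.8% of SSRP1 peaks without SUPT16. The difference between SUPT16-only and shared peaks was -12.9 percentage points (95% interval -16.0 to -9.76). At the common length of 210 bp it was -18.7 points (interval -24.0 to -13.2), from 42.5% and 61.2%. Above 700 bp, 64.3% of 84 SUPT16-only and 68.3% of 504 shared peaks lay at starts, a difference of -3.97 points whose interval (-15.3 to 6.34) includes 0. A SUPT16-only peak covered a start itself in 296 cases (14.5%), and a shared peak in 27.7%, but shared peaks are longer. At 210 bp these shares were 6.65% and 12.2%, and above 700 bp they were 41.7% and 47.6%.

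Near starts, SUPT16-only peaks lay mainly downstream. The centre of 74.9% of the 1045 was downstream of the nearest start, at a median of 214 bp. The bin from 0 to 250 bp downstream held 319 peaks (15.6% of the set) and the next held 263, whereas the bin just upstream held 126 (6.16%). Shared peaks had the same order, with 20.3%, 16.1%, and 6.80%.

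**Figure D2:**
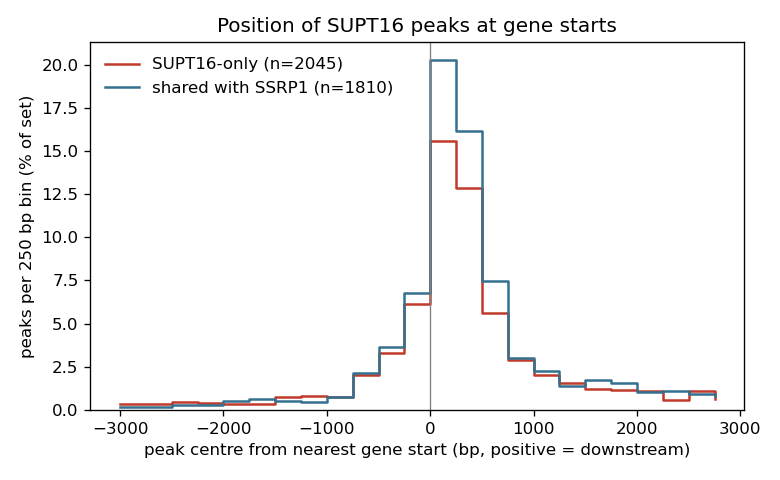
Position of the peak centre from the nearest gene start (x axis, bp, positive is downstream) against the share of the set in bins of 250 bp (y axis, %). Lines are SUPT16-only and shared SUPT16 peaks, and both are highest from 0 to 250 bp downstream, at 15.6% and 20.3%.

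By the feature at the peak centre, 37.6% of SUPT16-only peaks lay in introns, 25.4% in noncoding exons (UTRs and noncoding RNAs), 21.6% between genes, and 15.5% in coding sequence. The shares for shared peaks were 32.2%, 28.4%, 25.2%, and 14.2%. SUPT16-only peaks near a start were rich in G and C, with a median GC content of 66.6% and a CpG ratio (observed over expected) of 0.81. Those away from starts had medians of 53.9% and 0.30. Shared peaks were similar, with medians of 65.5% and 0.82 near starts and 54.1% and 0.37 away from starts. Repeats filled more than 50% of the bases in 119 SUPT16-only peaks (5.82%) and in 8.40% of shared peaks.

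A smaller share of SUPT16-only than of shared peaks lay near starts of small RNA genes. A protein-coding start lay within 1000 bp of 937 peaks (45.8%) and a lncRNA start of 180 (8.80%). A snoRNA start lay near 13 SUPT16-only peaks (0.636%, interval 0.372 to 1.08%) and 65 shared peaks (3.59%, interval 2.83 to 4.55%). A tRNA start lay near 15 (0.733%, interval 0.445 to 1.21%) and 41 (2.27%, interval 1.67 to 3.06%). The snRNA starts, of the RNAs of the spliceosome, lay near 3 and 18 peaks. Chromosome 8 held 160 SUPT16-only peaks (7.82%) and 263 shared peaks (14.5%) with a difference of -6.71 points (interval -8.72 to -4.72). Among peaks of 210 bp the difference was -3.09 points, and its interval (-6.79 to 0.16) includes 0. Chromosome 8 makes up 4.75% of the assembled genome.

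The peaks were assigned by the authors to 1874 nearest genes, 1723 of which have an RNA-seq value. Of the 1874, 1682 had 1 SUPT16-only peak, 160 had 2, and 32 had 3 or more. Of the 1874 genes, 880 (47.0%) also carried a SSRP1 peak elsewhere in their locus and 286 (15.3%) a shared SUPT16 peak. SUPT16-only peaks were thus the sole FACT peaks of 993 genes (52.99%), 893 with a value. In 616 of these 893 a peak lay near a gene start, and in 277 it lay away from starts. For 86.6% of the assignments near a start the start was that of the assigned gene itself.

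The expression of these genes in control mESCs was above the median of all genes. The level is the mean of log2(normalised read count + 0.5) over 4 control libraries. Its median was 5.18 for the 1723 genes, against 4.50 for all 15384 genes and 5.65 for the 1415 genes with a shared SUPT16 peak. The median was 5.03 for genes with a sole SUPT16-only peak near a start, 4.59 for those with one away from starts, and 4.12 for genes with no FACT peak. For genes with a SSRP1 peak but no SUPT16 peak it was 4.79. Per kb of exon the medians were 3.55 for all 1723 genes, 3.43 near starts, 3.01 away from starts, 4.21 for shared, and 3.09 for all genes. The spread between the control libraries in the median of the 1723 genes was 0.038 (SD, n = 4).

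The 15384 genes were split by their level in control into 4 equal classes. Of the 1723 genes, 37.8% were in the highest class and 12.9% in the lowest. Per kb these shares were 32.4% and 14.6%. Of genes with a shared SUPT16 peak, 48.1% were in the highest class. In chromatin RNA, the median of log2(CPM + 0.5) was 1.498 and 2.21 in replicates 1 and 2, against 0.97 and 1.51 for all genes. The chromatin libraries hold 3441643 and 3393923 counts, of which a single gene took 20.0% and 21.2%.

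**Figure D3:**
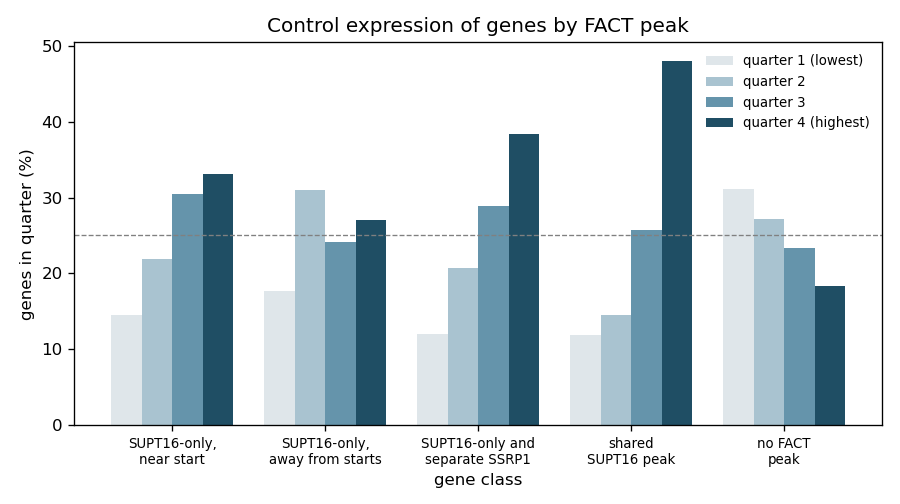
Share of genes (y axis, %) in each of 4 classes of control expression for 5 groups of genes by their FACT peaks (x axis), with a dashed line at the 25% that all genes give. Genes with a shared SUPT16 peak had 48.1% in the highest class, and genes with a SUPT16-only peak near a start as their sole FACT peak 33.1%.

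The change upon *Ssrp1* KD was next compared. *Ssrp1* itself fell from 235 ± 17.6 to 26.1 ± 2.13 normalised reads (SD, n = 4 libraries each), a log2 fold change of -3.15. The RNA of *Supt16* was at 319 ± 22.0 in control and 504 ± 20.2 in KD (log2 fold change 0.66, not called). This change was 0.03 with quantile normalisation and 1.69 scaled to the spike-ins. For the protein, the paper reports by mass spectrometry that SUPT16 was depleted together with SSRP1. Neither gene carried a SUPT16 peak, and each carried 1 SSRP1 peak. The libraries held 4602278 to 6680919 recovered reads in control and 9433193 to 19856032 in KD, so low values are less precise in control. Summed markers of ES cells ranged from 1619.5 to 1738 in control and from 4667 to 5154 in KD. Those of neural cells ranged from 56.5 to 75.9 and from 114 to 126, of endoderm from 42.5 to 62.1 and from 17.8 to 19.9, of mesoderm from 11.6 to 22.4 and from 1.52 to 3.34, of trophectoderm from 951 to 1293 and from 751 to 798, and of fibroblasts from 41.7 to 52.4 and from 12.2 to 13.7. A sum does not give the direction of each marker. In the neural sum, *Tubb3* rose from a mean of 33.6 to 108, which is most of the KD sum, and *Neurod1* fell from 14.9 to 3.62. The part of these cell types in the results was not tested, and fewer cells of a type and less RNA per cell cannot be told apart in these bulk samples.

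A smaller share of genes with a SUPT16-only peak than of all genes was called lower in KD, and this difference was not tested. With limma and Benjamini-Hochberg adjustment (absolute log2 fold change above 1, adjusted p below 0.01), 127 of the 1723 were higher in KD (7.37%) and 234 lower (13.6%). Over all 15384 genes the shares were 8.07% and 20.6%. The median log2 fold change was 0.06 for the 1723 genes and -0.03 for all genes. Genes with a shared SUPT16 peak had 15.3% higher, 8.34% lower, and a median of 0.27. The 3586 genes with a SSRP1 peak but no SUPT16 peak had 8.28% higher, 16.5% lower, and a median of 0.07. The small positive median is thus not particular to genes with a SUPT16-only peak.

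The direction depended on the scaling. Scaled to the spike-ins, the median of all genes moved to 0.95 and that of the 1723 genes to 1.06, and 52.9% of the latter were higher and 3.31% lower, against 48.1% and 7.03% of all genes. With quantile normalisation 7.31% were higher and 9.81% lower, against 9.87% and 10.8%. The median was then -0.02 for the 1723 genes and 0.05 for all genes, the reverse of their order with library-size values. Genes with a shared SUPT16 peak then had 9.33% higher, 6.502% lower, and a median of 0.11.

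Genes whose sole FACT peaks were SUPT16-only were next split by position of the peak. Near starts, 41 of 616 were higher (6.66%) and 61 lower (9.90%), with a median of 0.09. Away from starts, 14 of 277 were higher (5.05%) and 73 lower (26.4%), with a median of -0.30. The 557 genes that carried a SUPT16-only peak and a separate SSRP1 peak had 7.36% higher and 12.6% lower, and genes with no FACT peak 7.07% and 25.2%. Scaled to the spike-ins, the shares called lower were 1.46% near starts and 10.5% away from starts.

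**Figure D4:**
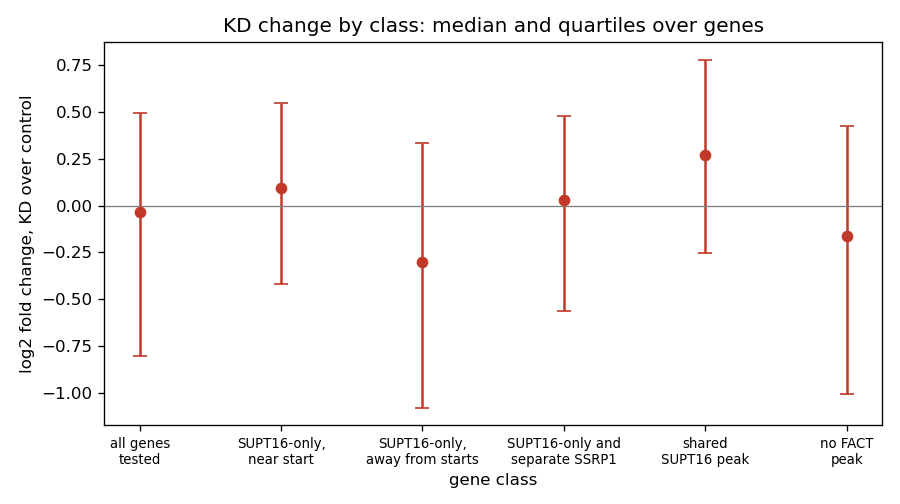
Log2 fold change of KD over control (y axis) for all genes tested and for 5 classes by their FACT peaks (x axis). Points are medians over genes and bars run from the lower to the upper quartile of genes, with medians of 0.09 near starts, -0.30 away from starts, and 0.27 for shared peaks.

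The classes also differ in expression level, and the level moved with the calls. In the lowest of 4 classes by the mean over all 8 libraries, 54.3% of all genes were lower in KD, as were 39.1% of the 69 genes with a sole peak near a start and 66.1% of the 62 away from starts. In the second class these shares were 21.2%, 16.4%, and 32.9%. In the third class they were 4.97%, 3.16%, and 4.23%, and in the highest 1.82%, 1.01%, and 5.88%. For all 1723 genes with a SUPT16-only peak the shares from the lowest to the highest class were 48.8%, 23.9%, 4.94%, and 2.36%. Their share was thus below that of all genes in the lowest class, above it in the second and the highest, and close to it in the third. The shares called higher in KD, in the same order, were 2.90%, 4.57%, 7.00%, and 10.8% of the 1723 genes. They were 1.87%, 5.67%, 9.44%, and 15.3% of all genes, and 6.16%, 7.41%, 11.4%, and 21.8% of genes with a shared SUPT16 peak.

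The largest falls among genes with a sole SUPT16-only peak near a start were those of *Cacna1c*, *Gnao1*, *Mylk*, *Cspg4*, and *Dusp8*. *Cacna1c*, the pore subunit of an L-type calcium channel, was at 19.1, 37.7, 38.4, and 24.6 normalised reads in the control libraries and at 0.989, 1.52, 0.389, and 0.754 in KD (log2 fold change -4.43, SE 0.23, limma with Benjamini-Hochberg adjusted p = 1.1e-15). Its peak of 280 bp lies in coding sequence, 28 bp from the start of another gene and 21963 bp downstream of its own. *Gnao1*, a G protein alpha subunit of neurons, was at 13.1, 30.1, 29.6, and 20.5 in control and at 1.48, 1.35, 1.62, and 1.04 in KD (-3.60). The groups did not overlap for either gene, a condition of the choice.

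*Mylk*, the myosin light chain kinase, was at 12.4, 19.6, 22.2, and 18.1 in control and at 1.24, 1.52, 1.17, and 0.754 in KD (-3.47). Its peak covers the start of the gene, and the nearest SSRP1 peak was 744968 bp away. *Cspg4*, a membrane proteoglycan, went from a mean of 15.2 ± 5.67 to 0.898 ± 0.392 (-3.45), and *Dusp8*, a phosphatase of MAP kinases, from 13.2 ± 1.44 to 1.49 ± 0.171 (-2.79; SD, n = 4). All 5 were low in every KD library, where separate groups were a condition of the choice, with at least 6 recovered reads in every library.

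The largest rises were those of *Hist3h2ba*, *Romo1*, *Qtrt1*, *Ydjc*, and *Galk1*. *Hist3h2ba*, a gene of histone H2B, was at 8.03, 10.5, 6.82, and 7.80 in control and at 56.8, 57.1, 63.3, and 54.2 in KD (log2 fold change 2.75, SE 0.11, limma with Benjamini-Hochberg adjusted p = 5.75e-18). Histone genes have close copies, so reads could be split between them and this value is uncertain. Its peak of 490 bp covers the start and has its centre in coding sequence.

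*Qtrt1*, the catalytic subunit of the enzyme that places queuine in tRNAs, was at 22.9, 24.4, 20.6, and 22.4 in control and at 87.6, 86.4, 91.4, and 84.9 in KD (1.93). *Galk1*, galactokinase, was at 62.2, 63.5, 55.8, and 64.3 in control and at 204, 208, 209.9, and 191 in KD (1.72). *Romo1*, a small protein of the mitochondrial membrane, went from a mean of 7.98 ± 2.29 to 31.3 ± 3.40 (1.95), and *Ydjc* from 14.4 ± 0.360 to 50.5 ± 1.62 (1.78; SD, n = 4). These 5 genes stood apart from the control in every KD library, a condition of the choice.

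**Figure D5:**
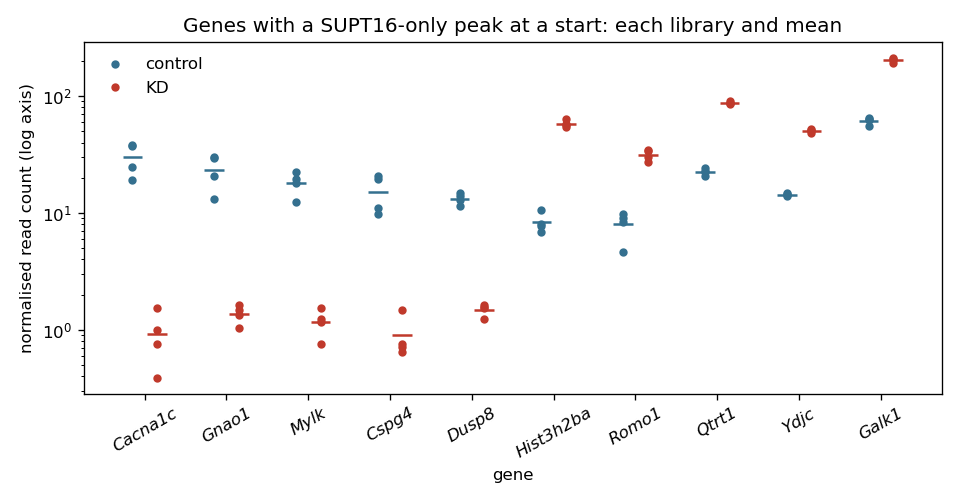
Normalised read count (y axis, log scale) of 10 genes (x axis) with a sole SUPT16-only peak near a gene start, chosen for the size of their change among called genes whose groups do not overlap. Points are libraries, 4 control and 4 KD, and lines are means, from *Cacna1c* (29.9 to 0.914) to *Galk1* (61.4 to 203). That the groups do not overlap for any of the 10 follows from the choice.

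None of the 5 most expressed genes with a SUPT16-only peak near a start was called. *Ddb1*, of the CUL4 ubiquitin ligase, was at 1372 ± 128 in control and 1488 ± 29.8 in KD (0.12). *Rack1*, a protein of the small ribosomal subunit, was at 776 ± 53.5 and 1381 ± 69.7 (0.83), and *Nedd4*, a ubiquitin ligase, at 601 ± 36.6 and 1016 ± 22.7 (0.76). *Cltc*, the clathrin heavy chain, was at 573 ± 60.7 and 577 ± 11.02 (0.02), and *Birc6*, an inhibitor of apoptosis, at 513 ± 50.7 and 456 ± 16.6 (-0.17). *Ddb1* has no other FACT peak, and the other 4 also carry a shared SUPT16 peak and 1 to 3 SSRP1 peaks. The SUPT16-only peaks of *Cltc*, *Rack1*, *Birc6*, and *Nedd4* lay 14, 140, 336, and 1554 bp from a SSRP1 peak. Under quantile normalisation *Ddb1* (-0.72), *Nedd4* (-0.12), and *Cltc* (-0.74) were below 0. Scaled to the spike-ins *Ddb1* (1.15), *Rack1* (1.86), *Nedd4* (1.78), and *Cltc* (1.04) were called higher.

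The longest SUPT16-only peak, of 8960 bp on chromosome X, was assigned to *Mid1* but lies past the annotated end of that gene and overlaps *Erdr1*, a transcribed pseudogene. Repeats fill 65.6% of it. *Mid1* was assigned 4 SUPT16-only and 7 shared peaks. Of the 4, only the peak of 2170 bp lies within the gene, and those of 1190 and 1400 bp also lie past its end. Repeats fill 99.1% of the peak of 1400 bp. *Mid1* went from 189 ± 20.6 to 67.9 ± 4.60 (-1.47, called lower, but -0.45 and not called with the spike-ins). A peak of 4410 bp covers *Rpl12*, of the large ribosomal subunit, and the snoRNA *Snora65* within it. *Rpl12* was at 403 ± 28.9 in control and 700 ± 61.8 in KD (0.79). A peak of 3010 bp overlaps the 3′ part of *Atf4* (0.12) and is also assigned to *Rps19bp1* (0.66), which it does not reach, and one of 1540 bp covers the start of *Vars*, the valyl-tRNA synthetase (0.89). *Ywhag*, of a family of phosphoprotein adaptors, carries 6 SUPT16-only peaks in its locus, the highest number, and its log2 fold change was 0.23. *Palld*, which binds actin, carries 4 (0.52), as do 3 other genes.

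Gene groups were counted by their members with a SUPT16-only peak, which 1723 of all 15384 genes had. Of all genes 8.07% were called higher and 20.6% lower. In the highest class by the mean over all 8 libraries, 15.3% of all genes were called higher. Of 46 genes of cytosolic ribosomal proteins 14 had one, and 8 of the 14 rose, with a median log2 fold change of 1.07, and 27 of the whole list of 46 rose (median 1.08). With quantile normalisation 0 of the 14 were called and their median was 0.31, with *Rps24* below 0 (-0.18), and scaled to the spike-ins all 14 were called (median 2.09). *Rpl8* had the largest change of the 14 (1.85), from 684 to 2463. For only 2 of the 14, *Rps7* and *Rpl12*, the SUPT16-only peak was the sole FACT peak. In the list of hypoxia and glycolysis, 4 of 6 rose, namely *Gapdh* (1.12), *Pkm* (1.30), *Aldoa* (1.48), and *P4ha1* (1.60), against 19 of 28 in the whole list. With quantile normalisation only *P4ha1* of the 6 was called (1.25).

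Both pluripotency genes with a SUPT16-only peak rose, *Gdf3* (1.03) and *Zfp296* (1.23), against 14 of 25 in the list, and with quantile normalisation *Gdf3* was not called (0.82). Of FACT and elongation factors, 5 of 28 had a peak and 0 of the 5 were called, from *Setd2* (-0.39) to *Nelfcd* (0.24), and edgeR and DESeq2 also called 0 of them (spike-ins, 2 higher), although 4 of 5 had an unadjusted p below 0.05 in limma. The adjusted p of the 5 in limma ran from 2.5e-06 (*Setd2*) to 0.21 (*Ctr9*). In the whole list 0 of 28 rose and 2 fell, including *Ssrp1* (-3.15), the target of the KD. Of histone chaperones and remodellers 5 of 21 had one and *Npm1* rose (1.07), against 6 of 21 in the list. Quantile normalisation did not call *Npm1* (0.14). Of splicing factors 5 of 36 and of translation factors 6 of 35 had one, and 0 were called in either by limma, edgeR, or DESeq2, with *Eif5b* lowest (-0.93). In the whole lists 6 of 36 and 7 of 35 rose. The unadjusted p in limma was below 0.05 for 4 of the 5 and 6 of the 6. Adjusted p in limma ran from 1.4e-11 (*Snrnp200*) to 0.30 (*Ptbp1*) for splicing factors. For translation factors it ran from 3.2e-13 (*Eif5b*) to 0.018 (*Iars*). The absolute log2 fold change of each of these genes was below 1. With quantile normalisation *Eif5b* was called lower (-1.24), and with the spike-ins 3 of the 5 and 5 of the 6 were called higher. Among replication and cell cycle genes 1 of 6 rose (*Gins1*, 1.12), against 6 of 38 in the list. Of the respiratory chain 1 of 3 rose (*Cox5a*, 1.08), against 14 of 42. Neither *Gins1* nor *Cox5a* was called with quantile normalisation (0.92 and 0.67).

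Of p53 targets with a SUPT16-only peak 1 of 4 fell (*Zmat3*, -1.41), against 6 of 20 in the list and 20.6% of all genes, and *Cdkn1a* was at -0.87. Scaled to the spike-ins *Zmat3* (-0.39), *Jun* (-0.71), and *Neurod1* (-0.95) were not called lower. Of immediate early genes 1 of 6 fell (*Jun*, -1.70), against 4 of 17 in the list. Of the neural genes *Neurod1* fell (-1.91) and *Tubb3* rose (1.69), against 4 lower and 2 higher of 11 with a value in the list. Of the genes of the ATF4 and heat shock response 1 of 5 rose, *Phgdh* (1.89), of serine synthesis, against 6 of 23 in the list and 8.07% of all genes. In the lists of core histones, snoRNA hosts, and proteasome subunits 1 gene each had a peak and was not called, namely *H2afy* (0.06), *Snhg6* (0.91), and *Psma7* (0.75). *Hist3h2ba* is not in the list of core histones, of which 21 of 25 rose. *Snhg6* was called higher with quantile normalisation (1.40), and all 3 were with the spike-ins. Of the whole lists of snoRNA hosts and proteasome subunits, 3 of 19 and 2 of 31 rose. No mesoderm or endoderm gene of the list had a SUPT16-only peak, and 7 of its 12 genes with a value fell.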

How the data were processed

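The peak positions were deposited by the authors, who used Bowtie2 (mm10), PePr with both replicates of each subunit in 1 call, and ChIP-Enrich for the nearest gene. RNA-seq values are a signal the authors made with STAR and featureCounts and deposited scaled to library size and to spike-ins. Reads were recovered from the steps between values (100% whole within 0.1). Each chromatin RNA count was deposited raw by the authors. The authors' tables of fold changes and exon usage were not used. Annotation was RefSeq on GRCm38 (1 start per gene, window 1000 bp). For 15384 genes, log2(library-size value + 0.5), a scale that understates changes of low genes, entered limma 3.58.1 (trend) and Benjamini-Hochberg adjustment. edgeR 4.0.16 and DESeq2 1.42.0 were run on recovered reads. Labels do not say that libraries are separate cultures, so p-values measure the spread between libraries. Named genes were the 5 largest rises and falls among called genes with sole SUPT16-only peaks near a start, separate groups, and a mean of at least 5, the 5 most expressed, those of the 5 longest peaks, the 3 with most peaks (ties by gene number), and members of 17 lists. Members and lists were chosen with earlier results of these data known. Python 3.11.15 and R 4.3.3 were used.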

Additional observations from a re-analysis of the deposited data

Results flagged for a closer look

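In *Cspg4*, the highest KD library was at 1.48 normalised reads, while the others were between 0.645 and 0.754. In *Mid1*, the highest KD library was at 74.8, while the others were between 65.2 and 66.0. The gap of these libraries to the next was a larger share of the group's range than Dixon's critical value allows. There were 50 groups of 4 libraries among the named genes, and chance flags about 1 in 20 groups.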

How the results depend on the processing

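Of genes with a SUPT16-only peak, 127 were called higher and 234 lower (median log2 fold change 0.06). Scaled to the spike-ins these became 912, 57, and 1.06, and by adjusted p alone 675 and 579. Quantile normalisation moved the median to -0.021, below the 0.05 of all genes, and a mean of at least 5 moved it to 0.10. With genes taken by a start within 1000 bp the values were 76, 103, and 0.12, with sole FACT peaks 55, 134, and 0.0038, and with peaks at least 1000 bp from SSRP1 the median was 0.0069. Leaving out 1 library gave 123 to 135 higher, 226 to 248 lower, and medians of 0.04 to 0.08. The median control expression of 5.18 became 5.24 with a pseudocount of 2, 4.68 with spike-ins, 3.55 per kb, 5.14 for genes by start, 4.94 for sole peaks, and 5.13 for peaks far from SSRP1. The share near starts of 51.1% became 43.6% within 500 bp, 58.5% within 2000 bp, 62.5% for peaks of at least 300 bp, and 59.9% with all RefSeq transcripts, added after seeing the data. The number of peaks of 2045 became 707 for peaks of at least 300 bp. Chromatin RNA moved from a median of 1.84 to 2.36 with a pseudocount of 2, and was 1.498 and 2.21 in single replicates. Quantile normalisation reversed *Ddb1* (-0.72), *Nedd4* (-0.12), *Cltc* (-0.74), *Atf4* (-0.18), and *Ywhag* (-0.12), spike-ins reversed *Birc6* (0.86), and leaving out control replicate 2 or 3 reversed *Cltc* (-0.019 and -0.026, with 0.081 at most over the libraries left out). With spike-ins 12 of 25 named genes became called, and *Mid1* was no longer called (-0.45). The 5 largest rises and 5 largest falls kept their direction and call under every alternative run. The cause of these shifts was not tested. Replicate numbers did not pair the samples (correlations of deviations -0.06 to 0.05), and a replicate block gave 361 calls among these genes, as without it. ChIP depth is unknown.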
